A study of Mus musculus with 6 samples.

Results

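The NRF2 pathway is described here through 35 genes: the transcription factor gene Nfe2l2, its inhibitor Keap1, and 33 genes known as targets of the factor. The genes were chosen by name from knowledge of the pathway, and a probe belonged to a gene when its transcript accession mapped to that gene. All 35 had a probe, on 51 probes in all, and all 35 were among the 22862 genes tested. Every one of the 35 was well above background on all 6 arrays, so the filter on faint probes removed none, and no probe of these genes was saturated.

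The study profiled hypothalamic RNA from male mice of the C57BL/6J background at 16 weeks of age, with 6 single-colour arrays divided evenly over 3 groups of 2. Every mouse carried 2 floxed alleles of Trsp, the gene of the transfer RNA that inserts selenocysteine into selenoproteins: TrspFF mice carried these alleles alone and served as controls, Trsp-RIPKO mice also carried RIP-Cre, and Trsp-Ins1KO mice also carried Ins1-Cre. RIP-Cre uses the promoter of the rat insulin gene, which is active in beta cells of the pancreas and also in part of the hypothalamus, whereas Ins1-Cre uses the mouse Ins1 gene and is known mainly from beta cells. Bulk tissue therefore mixes cells with and without Cre, and the arrays address what loss of Trsp, described by the submitters as raising oxidative stress, does to hypothalamic transcripts. No mice with Cre and without floxed alleles were among the groups, no probe measured Trsp, and the labels do not say whether the arrays of a group came from separate animals, so p-values here reflect just the array-to-array spread, which may be technical. In such tissue, fewer cells of a type and less RNA per cell cannot be told apart.

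NRF2, the protein made from Nfe2l2, is held in the cytoplasm and marked for breakdown by KEAP1 under basal conditions. Electrophiles and peroxides modify cysteines of KEAP1, NRF2 then accumulates in the nucleus, pairs with a small MAF protein and binds antioxidant response elements beside genes of glutathione synthesis, glutathione transfer, NADPH supply, iron and heme handling, and quinone reduction. In the brain the pathway is known to be more active in astrocytes than in most neurons.

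The level of a gene is the log2 processed signal of its brightest probe minus the 75th percentile of log2 signal on the same array, so a level of 0 lies at that percentile, and all differences are on the log2 scale. The 75th percentile lay between 1391 and 2137 units of intensity, and the share of probes well above background ranged from 68.9% to 72.0%. The signal of a replicate array differed from that of its partner with an SD of 0.51 in TrspFF, 0.41 in Trsp-RIPKO and 0.44 in Trsp-Ins1KO over all genes. Both TrspFF arrays were on 1 slide and all 4 knockout arrays on another, with separate scans, so in both comparisons against TrspFF, slide and genotype cannot be told apart. The deposited value table carries the knockout names the other way round from the scanner files: its 2 columns named Trsp-RIPKO matched the scanner arrays named Trsp-Ins1KO, and the reverse, with r of 0.99997 to 0.99998 in these 4 columns, against −0.22 and −0.20 with the arrays of the same name. The scanner file names are used throughout, and each direction that separates the knockouts depends on that choice.

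Marker genes of several tissues and cell types differed between arrays, most widely on 1 Trsp-Ins1KO array. The mean level of 14 choroid plexus markers was 0.70 and 0.20 on the TrspFF arrays, 0.18 and 0.36 on the Trsp-RIPKO arrays, and −0.20 and −2.66 on the Trsp-Ins1KO arrays, and that of 9 meningeal and fibroblast markers was −0.10 and −0.74, −0.98 and −0.56, and −0.57 and −1.79. Trsp-Ins1KO replicate 2 was thus the lowest array for both lists. Of the defining hypothalamic markers, Pomc, Agrp, Oxt, Avp, Hcrt and Pmch exceeded background clearly on each of the arrays, and Otp on none. The mean level of 11 astrocyte markers was 2.58 and 2.58, 2.54 and 2.53, and 2.65 and 2.65 in the same order, and that of 8 endothelial markers was −1.03 and −0.75, −0.69 and −0.68, and −1.34 and −1.24. Both Trsp-Ins1KO arrays differed from TrspFF in further lists. The mean level of 13 hypothalamic markers was 0.35 and 0.18 in TrspFF, 0.42 and 0.22 in Trsp-RIPKO, and 0.76 and 0.70 in Trsp-Ins1KO. In Trsp-Ins1KO 11 of 13 differences from TrspFF were above 0 (median 0.61, range −1.06 to 1.27). In Trsp-RIPKO 9 of 13 were (median 0.18, range −1.71 to 0.94). The mean level of 9 oligodendrocyte markers was 3.04 and 3.39, 3.18 and 3.09, and 2.72 and 2.92, where 8 of 9 differences in Trsp-Ins1KO were below 0 (median −0.43). All 8 microglial markers were above 0 in Trsp-Ins1KO (median 0.20) and all 8 endothelial markers below 0 (median −0.37). Of the 11 astrocyte markers, 9 were above 0 in Trsp-Ins1KO against TrspFF (median 0.06) and 3 in Trsp-RIPKO against TrspFF (median −0.09). In Trsp-RIPKO against Trsp-Ins1KO, 3 of the 11 were above 0 (median −0.22). Over all genes, 53.1%, 48.1% and 42.1% were above 0 in these 3 comparisons. The part of these differences in the results on the pathway was not tested. Values without Trsp-Ins1KO replicate 2 are given below, but they leave in place the shifts that both Trsp-Ins1KO arrays share.

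Stretches with the core binding motif of the factor are shown because the list was drawn up from its known targets. The core antioxidant response element, TGACNNNGC on the strand of the gene or GCNNNGTCA where it lies on the other strand, was searched in RefSeq windows of build GRCm38.p6 that reach from 250 bases before to 50 bases after a transcript start. A window existed for 30 of the 35 genes, and 9 of these 30 (30%) held the motif, against 14.0% of 27025 genes with a window. The motif lay before the start in the windows of 6 genes, across the start in Me1, and after it in Srxn1 and Pgd. The 8 stretches below are those of the first 7 genes, with 2 starts for Abcc4; they are printed along the strand of the gene and the capitals mark the motif, which is in the reverse form in Gclm, Mgst1, G6pdx and the first start of Abcc4.
Nfe2l2, chr2:75704879-75704913, minus strand: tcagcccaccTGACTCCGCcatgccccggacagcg
Gclm, chr3:122245407-122245447, plus strand: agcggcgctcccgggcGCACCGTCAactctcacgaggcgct
Gsta3, chr1:21240448-21240488, plus strand: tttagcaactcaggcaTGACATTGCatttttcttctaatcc
Mgst1, chr6:138140455-138140495, plus strand: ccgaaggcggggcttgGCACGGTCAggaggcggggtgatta
G6pdx, chrX:74428913-74428953, minus strand: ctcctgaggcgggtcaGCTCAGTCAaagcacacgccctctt
Me1, chr9:86695912-86695936, minus strand: tcggccgatgccgccgTGACTCAGC
Abcc4, first start, chr14:118706220-118706260, minus strand: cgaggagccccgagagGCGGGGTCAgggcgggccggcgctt
Abcc4, second start, chr14:118676932-118676970, minus strand: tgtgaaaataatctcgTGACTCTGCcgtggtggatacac
A match of these letters is a description and not a measured binding site, and elements farther from the start were not searched.

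The 3 genes with the smallest adjusted p in a comparison with TrspFF were Keap1, Gstm6 and Akr1b8, and 0 motifs were found in their windows. The 100 bases before the start of each are shown so that a reader can see these promoters; for Gstm6, the first of 3 starts is given.
Keap1, chr9:21239333-21239432, minus strand: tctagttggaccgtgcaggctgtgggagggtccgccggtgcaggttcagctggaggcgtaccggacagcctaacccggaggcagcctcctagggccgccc
Gstm6, chr3:107953467-107953566, minus strand: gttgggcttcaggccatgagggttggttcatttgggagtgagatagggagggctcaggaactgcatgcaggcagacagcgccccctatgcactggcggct
Akr1b8, chr6:34354046-34354145, plus strand: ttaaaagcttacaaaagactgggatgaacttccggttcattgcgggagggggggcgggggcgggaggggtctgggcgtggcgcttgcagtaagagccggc

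Across the pathway, few genes passed the test in any comparison. In Trsp-Ins1KO against TrspFF, 1 gene rose (Gstm6) and 1 fell (Keap1) at an adjusted p under 0.05 (limma with Benjamini-Hochberg adjustment over all genes), where 1.82% of all genes passed, 0.241% higher and 1.58% lower; 14 had an unadjusted p under 0.05, 9 higher and 5 lower, where 26% of all genes had one. In Trsp-RIPKO against TrspFF, 0 of the 35 passed, against 1.66% of all genes, and the smallest adjusted p was 0.0534, for Akr1b8; 6 had an unadjusted p under 0.05, 2 higher and 4 lower, where 23.9% of all genes had one. In Trsp-RIPKO against Trsp-Ins1KO, where all arrays shared a slide, 0 of the 35 passed, against 0.0175% of all genes, and the smallest adjusted p was 0.263; 11 had an unadjusted p under 0.05, where 18.4% of all genes had one.

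The direction of the 35 differences was mixed. The median difference was −0.02 in Trsp-RIPKO against TrspFF (all genes −0.01), with 13 values above 0 (48.1% of all genes) and a range from −1.04 to 0.51. In Trsp-Ins1KO against TrspFF the median was 0.09 (all genes 0.02), with 21 above 0 (53.1% of all genes) and a range from −0.59 to 1.16. In Trsp-RIPKO against Trsp-Ins1KO the median was −0.13 (all genes −0.05), with 9 above 0 (42.1% of all genes) and a range from −0.69 to 0.42. Without Trsp-Ins1KO replicate 2, the counts above 0 were 22 in Trsp-Ins1KO against TrspFF and 8 in Trsp-RIPKO against Trsp-Ins1KO. When each array was scaled to its median instead, the medians of all genes in the comparisons with TrspFF became 0.09 and 0.11 and those of the 35 genes 0.09 and 0.17, with 22 and 26 of 35 above 0. The majority direction also turned on the control arrays: without TrspFF replicate 1, 19 of 35 were above 0 in Trsp-RIPKO, and without TrspFF replicate 2, 9 were above 0 in Trsp-RIPKO and 17 in Trsp-Ins1KO. The SD between replicate arrays of the median deviation of the 35 genes was 0.06.

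Arrays of the groups did not overlap for some of the genes. In Trsp-RIPKO, 5 genes lay wholly above the TrspFF arrays (28% of all genes did) and 11 wholly below (30.2% of all genes). In Trsp-Ins1KO, 15 lay wholly above (31.7% of all genes) and 9 wholly below (26.4%). Between the knockouts, 5 were higher on both Trsp-RIPKO arrays than on both Trsp-Ins1KO arrays (22.9%) and 18 lower (35.8%). The 2 comparisons with TrspFF share their control arrays, so they are given side by side and not as independent.

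**Figure D1:**
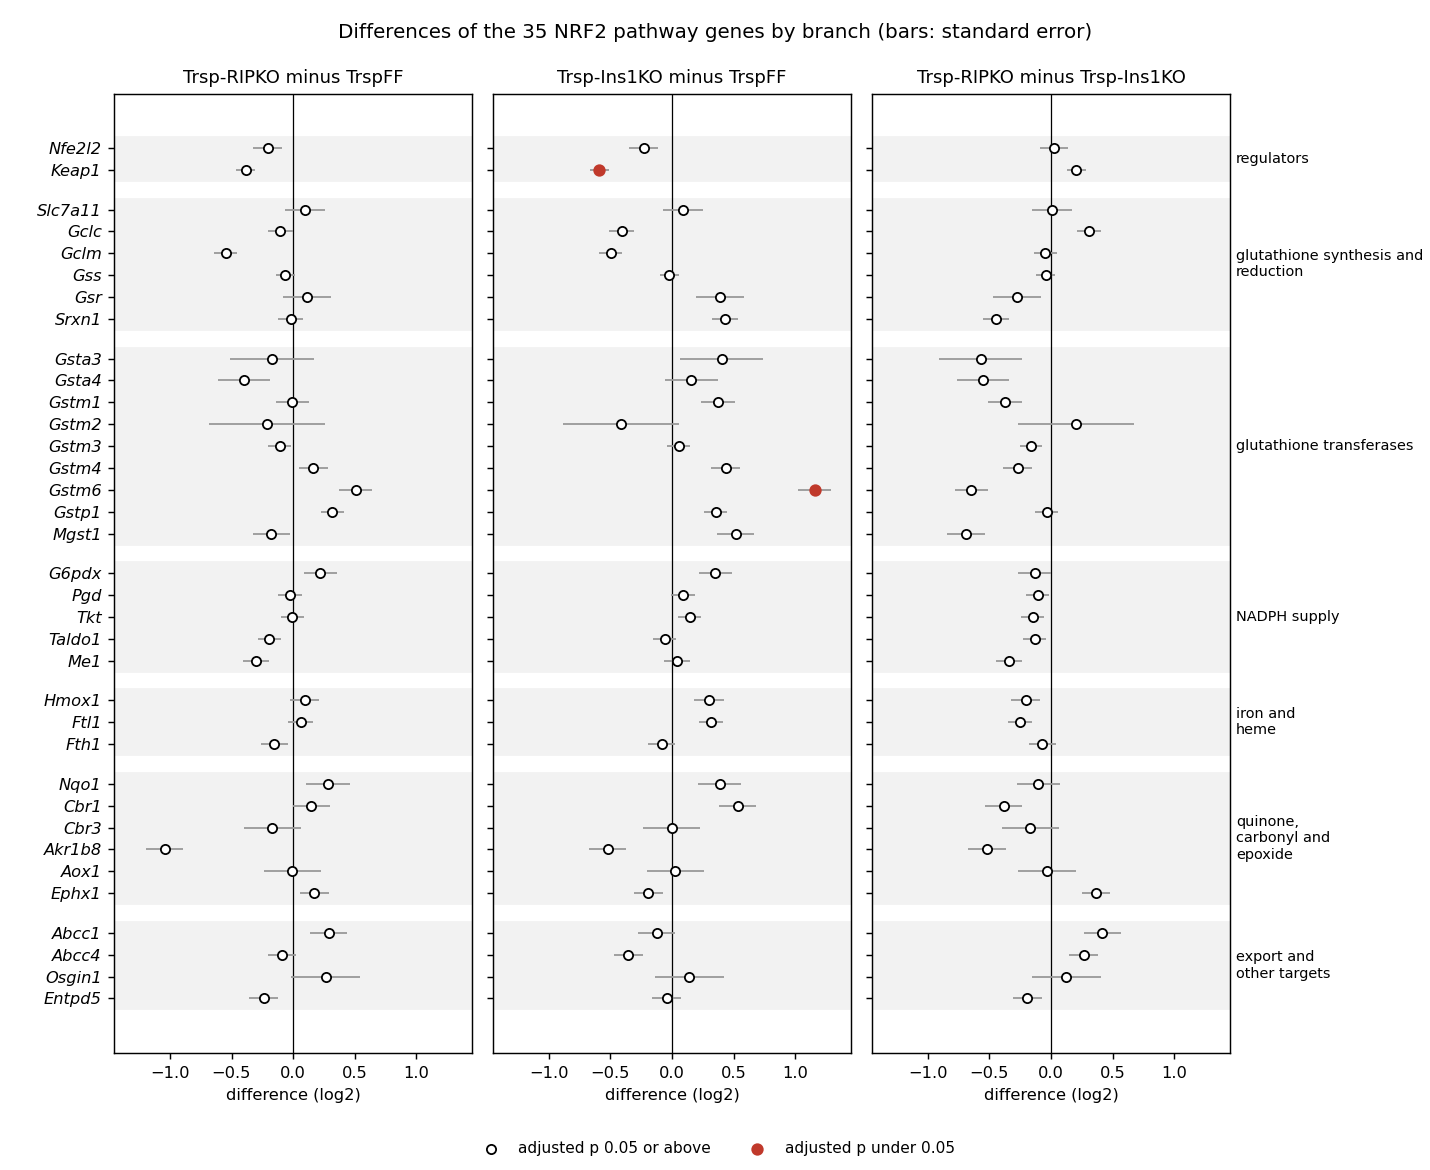
Differences (log2, horizontal axes) of the 35 genes by branch in Trsp-RIPKO minus TrspFF, Trsp-Ins1KO minus TrspFF and Trsp-RIPKO minus Trsp-Ins1KO; points are limma estimates from 2 arrays per group and bars their standard errors. The 2 filled points, Keap1 at −0.59 and Gstm6 at 1.16, both in Trsp-Ins1KO minus TrspFF, are those with an adjusted p under 0.05.

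Both regulators lay wholly below the control arrays in each knockout, and Keap1 passed the test in Trsp-Ins1KO. Of all genes, 30.2% lay wholly below in Trsp-RIPKO and 26.4% in Trsp-Ins1KO. Keap1, the adaptor that presents NRF2 to a ubiquitin ligase, had levels of 1.97 and 1.99 on the TrspFF arrays, 1.62 and 1.57 on the Trsp-RIPKO arrays, and 1.41 and 1.37 on the Trsp-Ins1KO arrays. The 3 groups did not overlap, and the control arrays were the highest. Keap1 fell by 0.59 in Trsp-Ins1KO (SE 0.0782; 1.5-fold lower; limma adjusted p = 0.0448); its difference in Trsp-RIPKO was −0.38 (SE 0.0782; adjusted p = 0.0867).

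Between the knockouts, Keap1 differed by 0.20 (adjusted p = 0.271). The call in Trsp-Ins1KO was lost when any of the 6 arrays was left out, with adjusted p up to 0.187, while the difference stayed between −0.61 and −0.57; without Trsp-Ins1KO replicate 2 it was −0.57. Nfe2l2, the transcription factor of the pathway, had levels of 0.29 and 0.25 in TrspFF, −0.08 and 0.20 in Trsp-RIPKO, and 0.04 and 0.04 in Trsp-Ins1KO. Both knockouts lay below the control arrays for Nfe2l2, with differences of −0.21 (adjusted p = 0.337) and −0.23 (adjusted p = 0.277), SE 0.117 each.

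**Figure D2:**
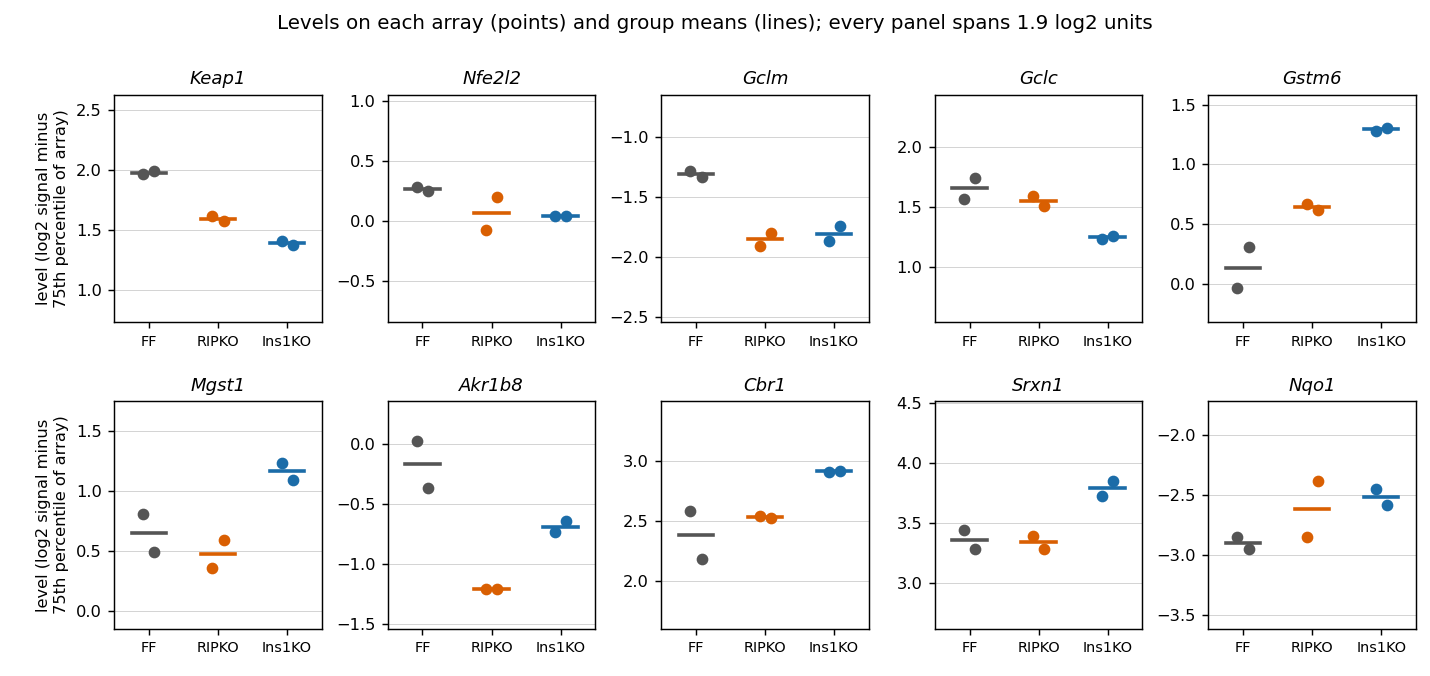
Level (log2 signal minus the 75th percentile of the array, vertical axes) of 10 genes on each array, by group (FF is TrspFF, RIPKO is Trsp-RIPKO, Ins1KO is Trsp-Ins1KO); points are the 2 arrays of a group, horizontal lines their mean, and every panel spans 1.9 log2 units. Keap1 and Gstm6 show 3 groups that do not overlap, with TrspFF highest for Keap1 and lowest for Gstm6, whereas the Trsp-RIPKO arrays are the lowest for Akr1b8.

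Genes of glutathione synthesis did not move together, and 0 of 6 in the branch of synthesis and reduction passed the test in any comparison (limma). An unadjusted p under 0.05 was found for 1, 3 and 2, where 23.9%, 26% and 18.4% of all genes had one. These values are for Trsp-RIPKO against TrspFF, Trsp-Ins1KO against TrspFF and Trsp-RIPKO against Trsp-Ins1KO, an order kept for the branches that follow. The median differences of the branch were −0.04, 0.03 and −0.04. Gclm, the modifier subunit of glutamate-cysteine ligase, which catalyses the rate-limiting step of glutathione synthesis, had levels of −1.28 and −1.33 in TrspFF, −1.91 and −1.80 in Trsp-RIPKO, and −1.87 and −1.74 in Trsp-Ins1KO. All 4 knockout arrays lay below both control arrays. The Gclm difference was −0.55 in Trsp-RIPKO (SE 0.0929; adjusted p = 0.0679) and −0.50 in Trsp-Ins1KO (adjusted p = 0.0744), and the knockouts overlapped.

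Gclc, the catalytic subunit of the same ligase, had levels of 1.56 and 1.74 in TrspFF, 1.59 and 1.51 in Trsp-RIPKO, and 1.23 and 1.26 in Trsp-Ins1KO. Only the Trsp-Ins1KO arrays stood below the controls for Gclc, by −0.41 (SE 0.0991; adjusted p = 0.102), and the difference between the knockouts was 0.31 (adjusted p = 0.263). Srxn1, sulfiredoxin, which restores hyperoxidised peroxiredoxins, had levels of 3.44 and 3.28 in TrspFF, 3.39 and 3.28 in Trsp-RIPKO, and 3.73 and 3.85 in Trsp-Ins1KO. Trsp-Ins1KO was thus the highest group for Srxn1, with a difference of 0.43 from TrspFF (SE 0.104; adjusted p = 0.103) and one of −0.45 between Trsp-RIPKO and Trsp-Ins1KO (adjusted p = 0.263).

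The other 3 genes of the branch varied less between groups or more within them. Gsr, glutathione reductase, had levels of 1.16 and 0.75 in TrspFF, 1.03 and 1.10 in Trsp-RIPKO, and 1.15 and 1.53 in Trsp-Ins1KO, so that the spread between control arrays was as wide as the difference of 0.39 in Trsp-Ins1KO (SE 0.196; adjusted p = 0.277); its other probe gave 0.18 there, and −0.06 in Trsp-RIPKO against 0.11. Slc7a11, the cystine importer, differed by 0.10 and 0.09 from TrspFF in Trsp-RIPKO and Trsp-Ins1KO (SE 0.163). Gss, glutathione synthetase, lay between −0.86 and −0.79 on all 6 arrays. Over the 16 alternatives listed below, its difference from TrspFF ranged from −0.38 to 0.04 in Trsp-RIPKO and from −0.34 to 0.06 in Trsp-Ins1KO.

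Among the 9 glutathione transferases, which couple glutathione to electrophiles, Gstm6 rose in Trsp-Ins1KO and the other 8 did not pass the test in any comparison. Counts at an unadjusted limma p under 0.05 were 2, 5 and 4 of the 9 (22.2%, 55.6% and 44.4%). Of all genes, 23.9%, 26% and 18.4% had one. Trsp-Ins1KO differences from TrspFF were above 0 for 8 of the 9 (53.1% of all genes), with a median of 0.37, and 6 lay wholly above the controls (31.7% of all genes). In Trsp-RIPKO 3 of 9 were above 0 (48.1% of all genes), with a median of −0.11. Between the knockouts the median was −0.38 and 1 of 9 was above 0 (42.1% of all genes). There, 7 were lower on both Trsp-RIPKO arrays than on both Trsp-Ins1KO arrays (35.8% of all genes). The shifts of the hypothalamic, astrocyte, oligodendrocyte, microglial and endothelial markers given above run over the same Trsp-Ins1KO arrays, and their part in this was not tested.

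Gstm6, a mu-class transferase, had levels of −0.04 and 0.31 in TrspFF, 0.67 and 0.62 in Trsp-RIPKO, and 1.28 and 1.30 in Trsp-Ins1KO. The 3 groups did not overlap and the control arrays were the lowest. Gstm6 rose by 1.16 in Trsp-Ins1KO (SE 0.134; 2.23-fold; limma adjusted p = 0.0362), with a difference of 0.51 in Trsp-RIPKO (adjusted p = 0.126) and of −0.65 between Trsp-RIPKO and Trsp-Ins1KO (adjusted p = 0.263). Without Trsp-Ins1KO replicate 2 the difference from TrspFF was 1.15 (adjusted p = 0.159); over the 6 arrays left out in turn it lay between 0.99 and 1.33, and the call held only without TrspFF replicate 1 (adjusted p = 0.0417).

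All 3 probes of Gstm6 gave the same order of groups. Their differences in Trsp-Ins1KO against TrspFF were 1.16, 0.85 and 1.16, and in Trsp-RIPKO against TrspFF 0.72, 0.41 and 0.51, in the order of their probe numbers. When each kept probe was tested on its own, the adjusted p in Trsp-Ins1KO was 0.0627, 0.0754 and 0.0379. Gstm6 lies beside Gstm3, Gstm2, Gstm1 and Gstm4 on chromosome 3, in that order. The mu-class transcripts are alike in sequence, the probe sequences were not used here, and whether a probe also bound a neighbour's transcript was not tested.

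The neighbours of Gstm6 were measured by probes that in part gave different patterns. Gstm2 had levels of −1.02 and −1.66 in TrspFF, −1.84 and −1.25 in Trsp-RIPKO, and −1.17 and −2.33 in Trsp-Ins1KO. Its lowest value was on the Trsp-Ins1KO array with the lowest choroid plexus and meningeal markers, on each of its 3 probes, of which 1 did not clearly exceed background in Trsp-Ins1KO. The Gstm2 difference in Trsp-Ins1KO was −0.42 (SE 0.470; adjusted p = 0.599), and 0.16 without that array.

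Gstm4 had levels of −0.35 and −0.45 in TrspFF, −0.36 and −0.12 in Trsp-RIPKO, and 0.08 and −0.01 in Trsp-Ins1KO, a difference of 0.43 in Trsp-Ins1KO (SE 0.117; adjusted p = 0.117). Gstm1 had levels of 3.77 and 3.60, 3.61 and 3.74, and 4.19 and 3.92 in the same order, a difference of 0.37 in Trsp-Ins1KO (SE 0.137; adjusted p = 0.181). The other probe of Gstm1 gave 2.01 and 1.99, 2.17 and 2.32, and 2.45 and 2.39, the same order of groups as Gstm6 with no overlap, with differences of 0.24 and 0.42 from TrspFF (adjusted p = 0.203 and 0.0920 when each kept probe was tested on its own). For both genes the Trsp-Ins1KO arrays lay above all control arrays. Gstm3 differed by 0.06 in Trsp-Ins1KO on its brighter probe; its other probe was above background on 1 TrspFF, 0 Trsp-RIPKO and 2 Trsp-Ins1KO arrays and gives no usable difference.

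**Figure D3:**
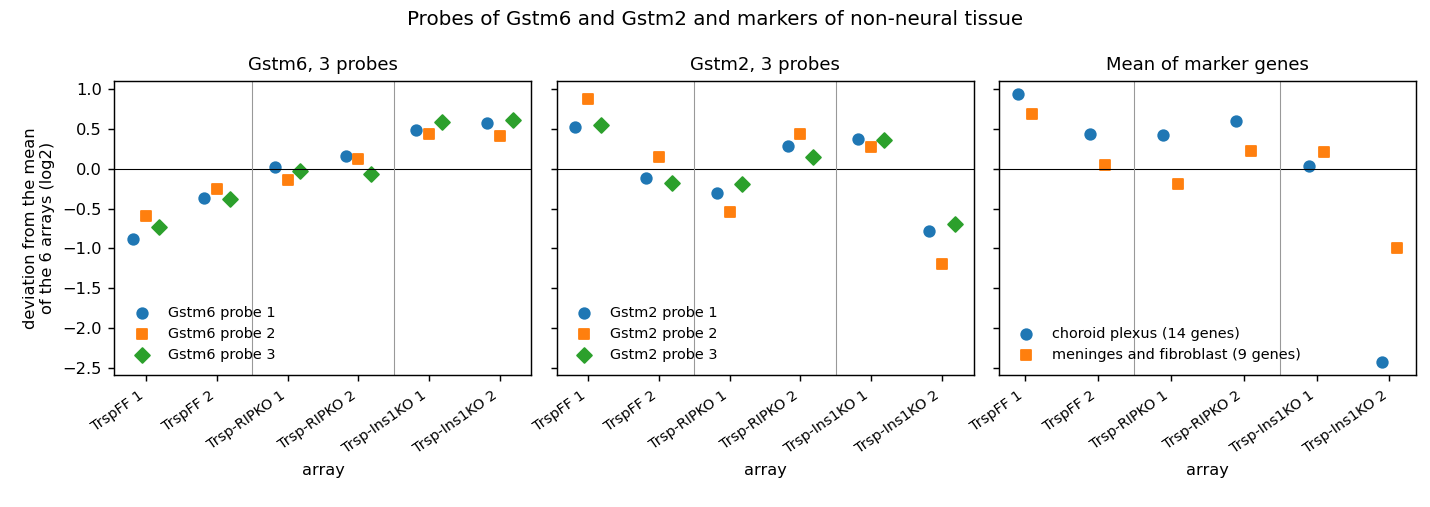
Deviation of each array from the mean of the 6 arrays (log2, vertical axes) for the 3 probes of Gstm6, the 3 probes of Gstm2 and the mean of choroid plexus (14 genes) and meningeal (9 genes) markers; each point is 1 array, and thin lines separate the groups. The probes of Gstm6 are lowest on the TrspFF arrays and highest on the Trsp-Ins1KO arrays, while those of Gstm2 and both marker lists are lowest on Trsp-Ins1KO replicate 2.

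Among the other transferases, Mgst1, the microsomal glutathione transferase, had levels of 0.81 and 0.50 in TrspFF, 0.36 and 0.59 in Trsp-RIPKO, and 1.24 and 1.09 in Trsp-Ins1KO. The Trsp-Ins1KO arrays were the highest for Mgst1, with a difference from TrspFF of 0.51 (SE 0.153; adjusted p = 0.132) and one of −0.69 between the knockouts (adjusted p = 0.263), the lowest value of that comparison among the 35. Gstp1, the pi-class transferase, had levels of 2.87 and 2.87 in TrspFF, 3.1 and 3.28 in Trsp-RIPKO, and 3.22 and 3.23 in Trsp-Ins1KO. All 4 knockout arrays lay above the control arrays for Gstp1, with differences of 0.32 (adjusted p = 0.150) and 0.35 (adjusted p = 0.117), SE 0.0953.

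The alpha-class transferases varied between replicates. Gsta3 ranged from −1.70 to −0.57 over the 6 arrays, with levels of −0.57 and −1.39 in Trsp-Ins1KO. Its difference of 0.40 in Trsp-Ins1KO (SE 0.338; adjusted p = 0.482) became −0.01 without Trsp-Ins1KO replicate 1. On its other probe Gsta3 differed by 0.17 in Trsp-RIPKO, against −0.17 on the brighter one. Gsta4 had levels of 0.23 and −0.34 in TrspFF, −0.57 and −0.34 in Trsp-RIPKO, and 0.15 and 0.05 in Trsp-Ins1KO. The control arrays lay far apart for Gsta4, so that its difference of −0.40 in Trsp-RIPKO (SE 0.213; adjusted p = 0.321) was −0.11 without TrspFF replicate 1 and −0.68 without TrspFF replicate 2, and that of 0.16 in Trsp-Ins1KO was 0.44 and −0.13.

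The NADPH branch, which regenerates the reducing power for glutathione and thioredoxin reductases, showed small differences, and 0 of 5 passed in any comparison (limma). In each comparison 1 of 5 had an unadjusted p under 0.05 (23.9%, 26% and 18.4% of all genes). Median differences were −0.02 in Trsp-RIPKO against TrspFF, 0.09 in Trsp-Ins1KO against TrspFF and −0.13 between the knockouts, where 0 of 5 were above 0 (42.1% of all genes). G6pdx, glucose-6-phosphate dehydrogenase, the entry to the pentose phosphate pathway, had levels of 2.04 and 1.94 in TrspFF, 2.20 and 2.22 in Trsp-RIPKO, and 2.17 and 2.51 in Trsp-Ins1KO. All 4 knockout arrays were above the controls for G6pdx, with differences of 0.22 (adjusted p = 0.373) and 0.35 (adjusted p = 0.191), SE 0.135.

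Pgd and Tkt, later enzymes of the same pathway, differed from TrspFF by −0.02 and −0.01 in Trsp-RIPKO and by 0.09 and 0.14 in Trsp-Ins1KO. Taldo1, transaldolase, differed by −0.19 and −0.06. Me1, the cytosolic malic enzyme, differed by −0.30 in Trsp-RIPKO on its brightest probe (SE 0.104, limma adjusted p = 0.180). Its other 2 probes gave 0.09 and 0.04 there, so that the probes of Me1 disagree in direction. In Trsp-Ins1KO the brightest probe of Me1 differed by 0.04 and the other 2 by 0.30 and 0.32. Their limma adjusted p was 0.186 and 0.135 when each kept probe was tested on its own.

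In the iron and heme branch, 0 of 3 genes passed in any comparison (limma). An unadjusted p under 0.05 was found for 0, 1 and 0 (23.9%, 26% and 18.4% of all genes). Hmox1, the inducible heme oxygenase, had levels of −1.71 and −1.94 in TrspFF, −1.81 and −1.65 in Trsp-RIPKO, and −1.56 and −1.48 in Trsp-Ins1KO. Ftl1, the ferritin light chain, had levels of 5.57 and 5.45, 5.64 and 5.50, and 5.85 and 5.80. On the brightest probe of both genes the Trsp-Ins1KO arrays lay above the control arrays, with differences of 0.30 for Hmox1 (SE 0.118; adjusted p = 0.199) and 0.31 for Ftl1 (SE 0.0980; adjusted p = 0.143). The Trsp-RIPKO arrays overlapped with the controls, with 0.09 for Hmox1 and 0.06 for Ftl1. The other probe of Hmox1 gave −0.09 in Trsp-RIPKO and 0.11 in Trsp-Ins1KO and overlapped with the controls in both. Fth1, the ferritin heavy chain, differed by −0.15 and −0.08.

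Among the 6 genes of quinone, carbonyl and epoxide metabolism, 0 passed the limma test, and Akr1b8 had the widest difference of the 35 in Trsp-RIPKO. An unadjusted p under 0.05 was found for 1, 2 and 2 of the 6 (23.9%, 26% and 18.4% of all genes). Akr1b8, an aldo-keto reductase, had levels of 0.03 and −0.36 in TrspFF, −1.21 and −1.21 in Trsp-RIPKO, and −0.73 and −0.64 in Trsp-Ins1KO. The 3 groups did not overlap, with the controls highest and Trsp-RIPKO lowest. The Akr1b8 difference was −1.04 in Trsp-RIPKO (SE 0.150; 2.06-fold lower; limma adjusted p = 0.0534), −0.52 in Trsp-Ins1KO (adjusted p = 0.127) and −0.52 between the knockouts (adjusted p = 0.263).

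The adjusted p of Akr1b8 in Trsp-RIPKO lay between 0.0268 and 0.280 over the alternatives and under 0.05 in 4 of 16, among them the fit without TrspFF replicate 2 (−1.24; adjusted p = 0.0379). Its 1 probe was printed on 10 spots of each array. Related aldo-keto reductase genes are alike in sequence, and binding of their transcripts to this probe was not tested.

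Nqo1, the quinone reductase often used as a readout of NRF2, had levels of −2.85 and −2.95 in TrspFF, −2.85 and −2.38 in Trsp-RIPKO, and −2.45 and −2.58 in Trsp-Ins1KO. The Trsp-RIPKO arrays lay apart from each other for Nqo1, and its differences from TrspFF were 0.28 (adjusted p = 0.379) and 0.39 (adjusted p = 0.243), SE 0.176. Cbr1, a carbonyl reductase, had levels of 2.58 and 2.18 in TrspFF, 2.54 and 2.52 in Trsp-RIPKO, and 2.91 and 2.92 in Trsp-Ins1KO. Trsp-Ins1KO was the highest group for Cbr1, with a difference of 0.53 from TrspFF (SE 0.150; adjusted p = 0.123) and one of −0.38 between the knockouts (adjusted p = 0.272).

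Cbr3, a related carbonyl reductase, and Aox1, aldehyde oxidase, overlapped between TrspFF and Trsp-Ins1KO, with a difference near 0 for Cbr3 and of 0.03 for Aox1. Ephx1, microsomal epoxide hydrolase, had levels of 2.06 and 2.06 in TrspFF, 2.20 and 2.26 in Trsp-RIPKO, and 2.00 and 1.73 in Trsp-Ins1KO. Its difference of 0.17 in Trsp-RIPKO (SE 0.116; adjusted p = 0.413) was −0.32 on its other probe, so that the probes of Ephx1 disagree in direction there.

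Of the 4 remaining targets, 0 passed the limma test, with 0, 1 and 1 at an unadjusted p under 0.05 (23.9%, 26% and 18.4% of all genes). Abcc1, an exporter of glutathione conjugates, had levels of −1.28 and −1.05 in TrspFF, −1.04 and −0.71 in Trsp-RIPKO, and −1.32 and −1.26 in Trsp-Ins1KO. The Trsp-RIPKO arrays were the highest for Abcc1, with a difference of 0.29 from TrspFF (SE 0.151; adjusted p = 0.311) and of 0.42 from Trsp-Ins1KO (adjusted p = 0.266), the largest positive value between the knockouts among the 35. Abcc4, a related exporter, had levels of −1.59 and −1.60, −1.80 and −1.57, and −1.87 and −2.02, with Trsp-Ins1KO lowest by −0.35 (SE 0.116; adjusted p = 0.153). Entpd5, a nucleoside diphosphatase of the endoplasmic reticulum, differed by −0.24 and −0.04, and on its other probe by −0.11 and 0.12. Over the 16 alternatives the Entpd5 difference from TrspFF ranged from −0.57 to −0.13 in Trsp-RIPKO and from −0.39 to 0.09 in Trsp-Ins1KO. Osgin1, an oxidative stress-induced growth inhibitor, ranged from −4.74 to −4.06 over the arrays and overlapped between all groups.

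**Figure D4:**
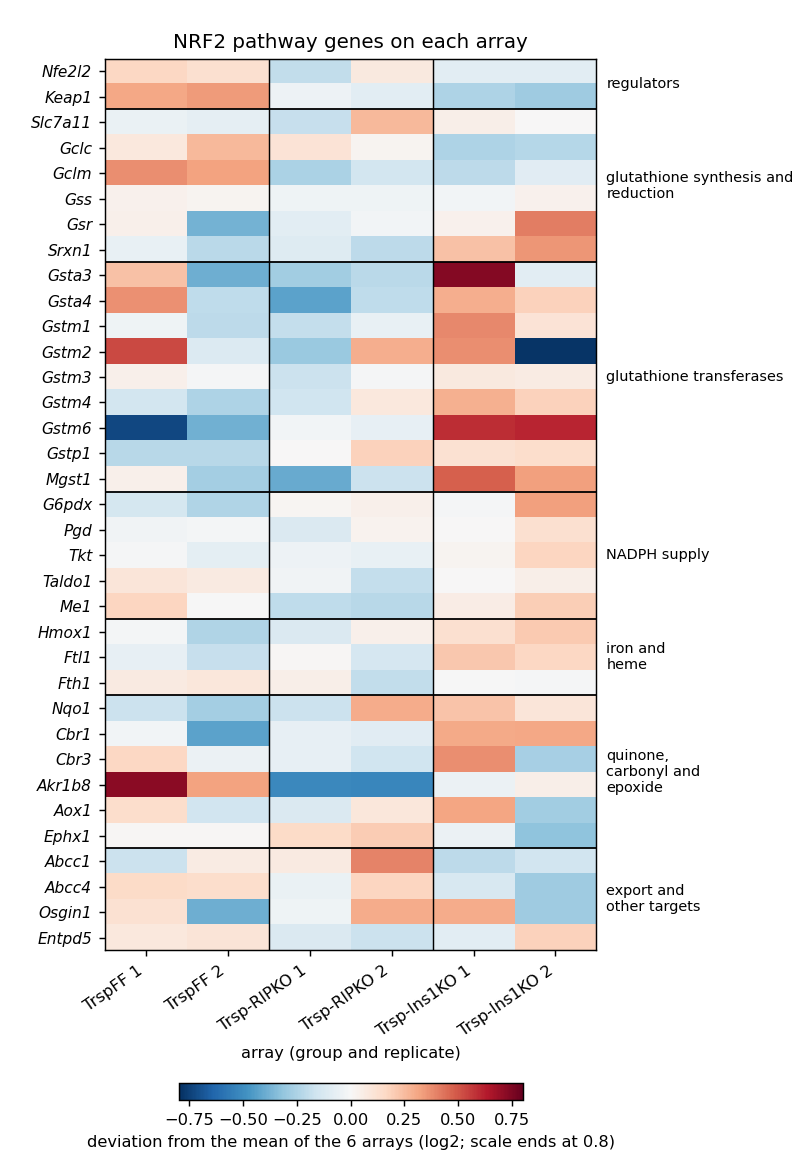
Deviation of each gene on each array from its mean over the 6 arrays (log2, colour scale from −0.8 to 0.8), with the 35 genes in rows by branch and the arrays in columns by group and replicate. Gstm6 is lowest on the TrspFF arrays and highest on the Trsp-Ins1KO arrays, Akr1b8 is highest on the TrspFF arrays and lowest on the Trsp-RIPKO arrays, and Gstm2 is lowest on Trsp-Ins1KO replicate 2.

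A further 96 genes of the pathway were listed by name, of which 86 were tested. Of these, 0 passed in any of the 3 comparisons (limma). The smallest adjusted p-values were 0.0916 (Rpe, Trsp-RIPKO against TrspFF), 0.0754 (Gsto1, Trsp-Ins1KO against TrspFF) and 0.263 (Glrx, between the knockouts). An unadjusted p under 0.05 was found for 19, 20 and 15 (22.1%, 23.3% and 17.4%), where 23.9%, 26% and 18.4% of all genes had one. Their median differences were 0.02, 0.12 and −0.08 (all genes −0.01, 0.02 and −0.05). Above 0 were 46, 55 and 31 of 86 (53.5%, 64.0% and 36.0%), against 48.1%, 53.1% and 42.1% of all genes.

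None of the small MAF partners and repressors of NRF2 named here passed the test. Mafg had levels of 3.19 and 3.08 in TrspFF, 2.93 and 2.73 in Trsp-RIPKO, and 2.90 and 2.92 in Trsp-Ins1KO, all 4 knockout arrays lying below the controls, with differences of −0.30 (adjusted p = 0.186) and −0.22 (adjusted p = 0.260). Mafk differed by −0.03 and −0.18, and Maff by −0.63 and 0.31 and by −0.94 between the knockouts, with an SE of 0.373 (adjusted p = 0.358, 0.626 and 0.273). Bach1, a repressor that competes for the same elements, differed by 0.04 and 0.17, and Nfe2l1, a related factor, by −0.28 and −0.07.

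Cul3, the scaffold of the ligase that KEAP1 serves, differed by −0.31 in Trsp-RIPKO (SE 0.0855; adjusted p = 0.133) and by −0.15 in Trsp-Ins1KO. Sqstm1, the autophagy receptor that binds KEAP1, differed by −0.13 and −0.04. Txnrd1, a selenoprotein and NRF2 target that reduces thioredoxin, had levels of 1.88 and 1.87 in TrspFF, 2.14 and 2.05 in Trsp-RIPKO, and 2.09 and 2.38 in Trsp-Ins1KO. All 4 knockout arrays lay above the controls for Txnrd1, with differences of 0.22 (adjusted p = 0.335) and 0.36 (adjusted p = 0.159).

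Of 12 other glutathione transferases tested, 11 had a difference above 0 in Trsp-Ins1KO against TrspFF (53.1% of all genes did). Their median there was 0.34 (all genes 0.02). In Trsp-RIPKO against TrspFF, 8 of 12 were above 0 (48.1% of all genes), with a median of 0.06 (all genes −0.01). The marker shifts given above run over the same Trsp-Ins1KO arrays, and their part in this was not tested. Gstt3, a theta-class transferase, differed by 0.69 in Trsp-Ins1KO (SE 0.155; adjusted p = 0.0929) and Gsto1, an omega-class transferase, by 0.44 (SE 0.0823; adjusted p = 0.0754). Mgst3 differed by 0.52 in Trsp-RIPKO (SE 0.151; adjusted p = 0.144). Glrx, glutaredoxin, differed by 0.87 in Trsp-Ins1KO (SE 0.282; adjusted p = 0.151) and by −0.92 between the knockouts.

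Some of the further genes differed widely between groups and also between replicate arrays. Aldh1a1, a retinaldehyde dehydrogenase, had levels of 2.04 and 3.57 in TrspFF, 3.88 and 4.0 in Trsp-RIPKO, and 1.52 and 2.97 in Trsp-Ins1KO, with differences of 1.13, −0.56 and 1.69 in the 3 comparisons and an SE of 0.682. Hrg, a plasma glycoprotein gene that the list held under the heme and iron heading, differed by −0.90 in Trsp-RIPKO and by −1.22 between the knockouts, with an SE of 0.528. Btrc, a substrate receptor of another ubiquitin ligase that acts on NRF2, differed by −0.64 in Trsp-Ins1KO, where its arrays stood at 1.29 and 0.34, and Rpia, a ribose isomerase, by 0.80 between the knockouts (SE 0.260; adjusted p = 0.263).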

How the data were processed

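The submitters labelled total RNA with Cy3 and, per the submitters' processing notes, read the scans with Agilent Feature Extraction 10.7.3.1; the array annotation follows build mm9. Per the file headers, the authors' software wrote a background-subtracted intensity for every spot (the processed signal). The deposited value table holds log2 values with medians of 0.03, −0.01, 0.05, −0.01, −0.01 and −0.05 in its 6 columns. Its scaling was not given in the sources used here, and its direction follows the scanner arrays. With columns matched to arrays, its values followed the levels used here centred on the median of each probe (r of 0.99997 to 0.99998). Read that way, it largely repeats the main levels. Of 43020 spots that are not controls, those with a quality flag were left out and the rest averaged to 39429 probes, of which 26055 (66.1%) received a symbol by accession from a GRCm38.p6 gene table. Probes were kept where both arrays of some group were well above background, and the brightest stood for its gene. All 6 arrays entered 1 fit in R 4.3.3 with limma 3.58.1 (lmFit, eBayes). It gave moderated 2-sided p-values, adjusted by Benjamini-Hochberg over 22862 genes at 0.05. A run on simulated data drew normal errors from the fitted spread, with changes in Trsp-RIPKO alone and no slide effect or marker shift. That run therefore cannot address the slide or the marker shifts. The members and lists were chosen with earlier results of these data known. Genes named are all members, 8 fixed further pathway genes, and per comparison the 2 largest rises and falls of the further list; Rpe and Gsto1 were added after their values were seen. Figures were drawn with matplotlib 3.10.9. Same-numbered arrays did not deviate together (r −0.03, 0.09 and −0.02), so replicate numbers were not treated as pairs. Alternatives were normexp on median signals, quantile and median scaling, the value table, other filters and probe rules, other variance settings, a 2-group fit, a fit blocked on replicate number, a minimum of 2-fold, and each array omitted in turn; the value table read by its own column names was added after the data were seen.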

Additional observations from a re-analysis of the deposited data

How the results depend on the processing

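The calls rested on few arrays and on the processing, for these genes and for all genes. In Trsp-Ins1KO against TrspFF, 416 of 22862 genes passed in the main fit. There, 0 of all genes passed with only the 2 groups compared or with a replicate block, and 25 of 32419 with no filter. In Trsp-RIPKO against TrspFF, 379 of all genes passed in the main fit and 0 under each of these alternatives. In Trsp-Ins1KO against TrspFF, where 2 of the 35 genes passed, 1 passed with normexp, median scaling, averaged probes per gene, or a 2-fold minimum, and 0 with no filter, with only the 2 groups compared, with a replicate block, or with the value table read by its own column names; leaving out 1 array gave 0 to 1. Keap1 kept its call in 5 of 16 alternatives and Gstm6 in 7 of 16. Both kept their sign in 16 of 16, but several of these alternatives could not change a difference. Other variance settings, the 2-group fit, the replicate block and omission of a Trsp-RIPKO array leave it as it was. In Trsp-RIPKO against TrspFF, where 0 passed, 1 passed with normexp or a filter on all 6 arrays, 2 with eBayes with trend and robust, and 2 with the value table by its own column names; leaving out 1 array gave 0 to 1, the 1 being Akr1b8 without TrspFF replicate 2. Between the knockouts, 0 passed under every alternative. With only these 2 groups compared, 319 of all 22862 genes passed, against 4 in the main fit. The smallest limma adjusted p of the 35 was then 0.0638 (Gstm6), against 0.263 in the main fit. With the replicate block the smallest adjusted p of the 35 was 0.0941, 0.0930 and 0.264 in the 3 comparisons.

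The median difference in Trsp-RIPKO against TrspFF, −0.02, became 0.085 with median scaling, 0.086 with the value table by its own names, and −0.095 to 0.057 with 1 array left out (0.057 without TrspFF replicate 1). In Trsp-Ins1KO against TrspFF, 0.09 became 0.172 with median scaling, −0.025 with the value table by its own names, and −0.0067 (without TrspFF replicate 2) to 0.164 (without Trsp-Ins1KO replicate 2). Between the knockouts, −0.13 became −0.072 with quantile normalization and 0.133 with the value table by its own names. That last alternative exchanges the 2 knockouts by its construction; the cause of the other changes was not tested. With median scaling 26 and 30 of 35 differences from TrspFF kept their sign. Omitting an array leaves a lone array in that group, assumed to vary like the rest. With 2 arrays per group, differences had a median standard error of 0.127.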
